A study of Solanum lycopersicum with 24 samples.

Results

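Tomato (Solanum lycopersicum) shoot meristems were compared across the step from the transition meristem to the floral stage in wild-type (WT) plants. The comparison sets 3 libraries of WT FIM, the legend's term for a floral meristem together with the inflorescence meristem flanking it, against 3 libraries of WT TM, the transition meristem, and covers all genes of the deposited table. These are 6 of the 24 RNA-seq libraries of the series. The other libraries are the same stages of slful, for which the legend writes ful1/ful2/mbp10/mbp20 (4 genes of the FRUITFULL group), and, in both genotypes, the vegetative meristem (VM) and SFIM, the FIM that the first sympodial shoot makes. Both groups compared here carry the WT genotype with no treatment named in the labels, were grown in a greenhouse and came from 30 to 60 meristems pooled per library, so a library averages over plants and over the cells of the whole sample. No source used here gives the cultivar or the plants' age. The series describes its 3 libraries per group as biological replicates.

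A tomato shoot apex makes leaves as a VM, enlarges and domes as a TM when the plant turns to flowering, and then ends as a flower while a new inflorescence meristem forms at its flank. The florigen SFT promotes the switch. The bZIP protein SSP works with it, and the antiflorigen SP opposes it. Flower identity rests on FALSIFLORA (the LEAFY counterpart) and ANANTHA (the F-box protein that matches Arabidopsis UFO), and on MADS-box transcription factors of the AP1, SEPALLATA and AGL6 groups that act later in the flower. Genes such as TMF, an ALOG-family protein that delays flower formation, keep a meristem from becoming a flower too early.

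Of 34075 genes in the table, 17649 reached at least 0.5 RPKM (reads per kilobase of gene and per M mapped reads, M standing for mega) in at least 3 of the 6 libraries and were tested with limma on log2(RPKM + 0.5). At a Benjamini-Hochberg adjusted p under 0.05, 842 genes (4.77%) passed, 434 of them higher in FIM (2.46%) and 408 lower in FIM (2.31%). An absolute difference over 2-fold was seen for 345 of these (1.95%), 180 higher and 165 lower. The count rests on few libraries: it was 255 without FIM replicate 1, 291 without FIM replicate 2, 131 without FIM replicate 3, 523 without TM replicate 1, 1291 without TM replicate 2 and 441 without TM replicate 3. Fits that estimate the spread in other ways moved the count both ways. It was 682 (331 higher, 351 lower) with the 12 TM and FIM libraries of both genotypes. It was 1801 (849 higher, 952 lower) with all 24 libraries and 2132 (1034 higher, 1098 lower) with the 12 WT libraries. With 1 weight per library it was 3031 (1343 higher, 1688 lower), where FIM replicate 3 weighed 6.62 and the other libraries 0.371 to 1.55. The libraries of the groups did not overlap for 4991 tested genes (28.3%). Differences below are FIM minus TM with their SE on the log2(RPKM + 0.5) scale, and this scale understates the change of low genes. Their median over all genes tested was -0.01, and in the alternative fits the absolute value of that median was at most 0.0322.

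Depth implied by the RPKM values was 31.59 to 38.96 M reads in the FIM libraries and 32.04 to 90.37 M in the TM libraries. Between replicates, log2 values had a median SD of 0.11 in FIM and 0.148 in TM. Meristem markers were present in all 6 libraries, with WUS, CLV3, TKN2 and TKN1 all above 10 RPKM in every library. The 7 markers of floral organs were TAP3, TM6, GLO1, GLO2, TAG1, TAGL1 and CRCa. They summed to 23.5 to 25.5 RPKM in FIM libraries against 28.7 to 30.2 RPKM in TM libraries, most of it from TM6. In WT VM, TM6 averaged 18.7 RPKM and CRCa 17.7 RPKM, so this sum does not measure floral organs alone. TM6, TAG1 and CRCa reached the level for testing, and only the petal and stamen gene TAP3 had 0 reads in all 6 libraries, where 3 reads would equal 0.0679 to 0.0837 RPKM in FIM and 0.0293 to 0.0826 RPKM in TM, counting error alone considered. The TM libraries differed from each other in both sets of calls. Among the 434 genes higher in FIM, TM replicate 2 had the highest TM value for 254 (58.5%, against 28.4% over all genes tested), and among the 408 lower in FIM, TM replicate 1 had it for 286 (70.1%, against 36.3%). Symbols are those under which the loci were listed here. Of 110 listed loci, 15 had a deposited description, and the description fitted the symbol or its family for 14.

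Flower-identity MADS-box genes rose together. Of 8 listed loci of the AP1-like, SEP-like and AGL6-like groups, 7 were tested, all 7 rose and 0 fell, against 2.46% of all genes called higher. Their median difference was 2.58, and their summed level was 268 to 320.0 RPKM in FIM libraries against 62.1 to 134 RPKM in TM libraries. In pooled tissue, a change in the number of cells of a type and a change in RNA per cell cannot be told apart. These proteins combine with other MADS-box factors to specify sepals, petals, stamens and carpels. The eighth, RIN (Solyc05g012020), the fruit ripening factor, did not reach the minimum level for testing, with 0.357, 0.365 and 0.296 RPKM in FIM against 0.0682, 0.426 and 0.328 RPKM in TM.

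AGL6 (Solyc01g093960, described as a MADS box transcription factor), a regulator of fruit set, had 8.99, 7.52 and 13.8 RPKM in FIM against 0.494, 1.5 and 0.0777 RPKM in TM. All FIM libraries lay above all TM libraries, which differed widely among themselves, and the difference was 3.30 (SE 0.43, limma adjusted p = 0.00918). MACROCALYX (MC, Solyc05g056620), the AP1-like gene that shapes sepals and the pedicel joint, was the highest of the group, with 162, 168 and 181 RPKM in FIM against 44.8, 95.4 and 62 RPKM in TM. The FIM libraries lay close together and above all TM libraries, of which replicate 2 came nearest. FIM minus TM came to 1.40 (SE 0.24, limma adjusted p = 0.0195). Its call was lost without FIM replicate 1, 2 or 3 or TM replicate 3 (limma adjusted p 0.067, 0.0641, 0.0891 and 0.0635).

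J2, EJ2 and LIN are SEPALLATA-like regulators of inflorescence branching in tomato, and J2 is also needed for the pedicel joint. J2 (Solyc12g038510) had 33.6, 34.3 and 44.1 RPKM in FIM against 4.95, 8.83 and 3.69 RPKM in TM. Its log2 difference was 2.65 (SE 0.27, limma adjusted p = 0.00377). EJ2 (Solyc03g114840) had 13.6, 13.2 and 16.8 RPKM in FIM against 1.53, 4.08 and 1.19 RPKM in TM. The groups differed by 2.58 (SE 0.34, limma adjusted p = 0.00946). Every FIM library exceeded every TM library for both genes, and TM replicate 2 was again the highest TM library. LIN (Solyc04g005320) had 42.2, 48.5 and 53.3 RPKM in FIM against 9.86, 22.8 and 12 RPKM in TM. On the log2 scale the difference was 1.74 (SE 0.27, limma adjusted p = 0.0146). Without FIM replicate 3 the calls of EJ2 and LIN were lost (limma adjusted p 0.0535 and 0.0717), and that of LIN also without FIM replicate 2 (0.0527) or TM replicate 3 (0.0519).

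The SEPALLATA-like genes TM29 (Solyc02g089200, described as TM29) and TM5 (Solyc05g015750), which act in the inner floral whorls and in fruit set, were low in TM. TM29 had 5.13, 4.14 and 7.82 RPKM in FIM against 0.29, 0.526 and 0.222 RPKM in TM. FIM differed from TM by 2.85 (SE 0.24, limma adjusted p = 0.00233). TM5 had 1.82, 1.46 and 2.49 RPKM in FIM against 0.0739, 0.393 and 0.0398 RPKM in TM. The fitted difference was 1.87 (SE 0.25, limma adjusted p = 0.0103). TM5 passed the filter only through FIM, so it was not tested when a FIM library was left out. On reads with voom, which adds less to low values, the TM5 difference was 4.36 and that of AGL6 5.09.

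**Figure D1:**
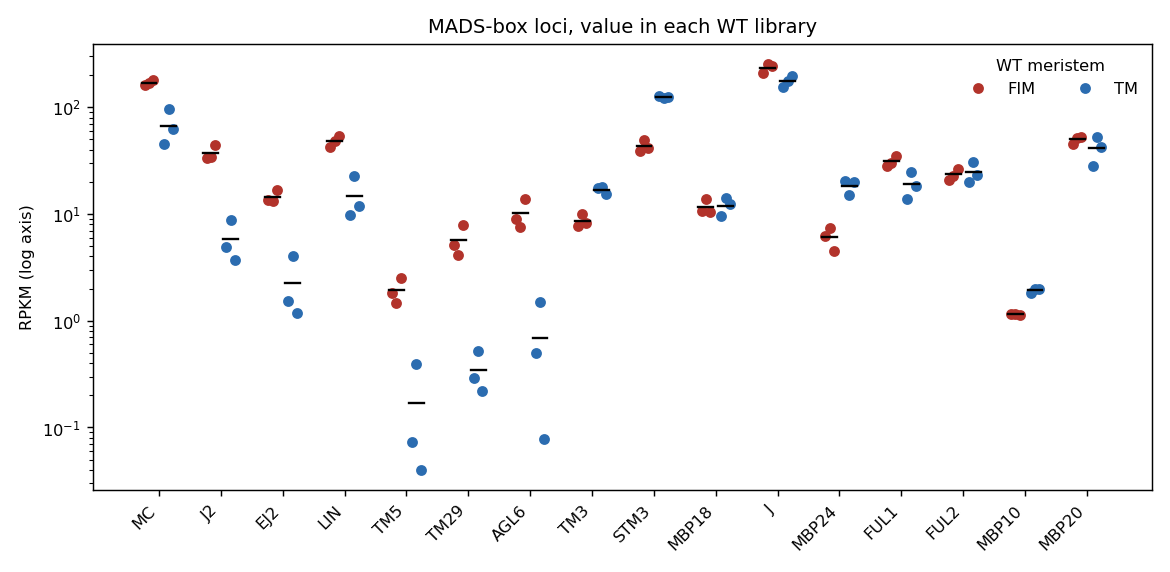
RPKM (log axis) of 16 MADS-box loci in each WT library, FIM in red on the left and TM in blue on the right of each locus; bars mark group means. The 7 loci from MC to AGL6 have all FIM points above all TM points, TM3, STM3 and MBP24 have them all below, and none of the 4 FUL-like loci at the right was called.

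SOC1-like and SVP-like MADS-box genes, which act in flowering time and the meristem's change of phase, fell or did not pass. Of 5 tested, 3 fell and 0 rose, against 2.31% of all genes called lower, and the median difference was -0.93. STM3 (Solyc01g092950, described as a MADS-box protein) had 39, 49.5 and 41.2 RPKM in FIM against 126, 121 and 124 RPKM in TM. As a log2 difference this was -1.51 (SE 0.10, limma adjusted p = 0.00102). The TM libraries differed by less than the FIM libraries, and no library of one group came near the other. Its SOC1-like relative, the gene TM3 (Solyc01g093965), had 7.71, 10.02 and 8.15 RPKM in FIM against 17.4, 17.8 and 15.5 RPKM in TM. The step measured -0.93 (SE 0.11, limma adjusted p = 0.00789). The SVP-like MBP24 (Solyc01g105800) had 6.16, 7.39 and 4.54 RPKM in FIM against 20.5, 15 and 19.8 RPKM in TM. The difference was -1.55 (SE 0.18, limma adjusted p = 0.0068). These 3 calls held under every alternative run. JOINTLESS (J, Solyc11g010570), the SVP-like gene of the pedicel joint and of the inflorescence meristem, had 209, 253 and 244 RPKM in FIM against 156, 176 and 194 RPKM in TM, a difference of 0.42 that did not pass (limma adjusted p = 0.0816; 0.027 with the replicate number as a block). MBP18 (Solyc03g006830) was at 11.6 ± 1.99 RPKM in FIM against 12 ± 2.21 RPKM in TM (SD, n = 3 each), a difference of -0.04 (SE 0.16).

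The 4 FUL-like genes, the AP1/FUL group that speeds flowering in tomato and is named in the slful genotype, gave 0 calls in either direction, with a median difference of 0.13. FUL1 (Solyc06g069430, described as FRUITFULL-like MADS-box 1) had 28.1, 30.3 and 34.8 RPKM in FIM against 13.9, 25 and 18.5 RPKM in TM. Its FIM libraries were above all TM libraries, but the difference of 0.72 (SE 0.19) did not pass (limma adjusted p = 0.08; 0.0471 with the replicate number as a block). MBP20 (Solyc02g089210) had 45.7, 51.9 and 52.4 RPKM in FIM against 28.1, 53 and 42.6 RPKM in TM, and FUL2 (Solyc03g114830) 21, 22.9 and 26.6 RPKM in FIM against 20.1, 30.6 and 23.4 RPKM in TM, with overlapping libraries for both. MBP10 (Solyc02g065730) was low, with 1.17, 1.16 and 1.14 RPKM in FIM against 1.82, 1.99 and 1.99 RPKM in TM, groups that did not overlap, and a difference of -0.55 (SE 0.13, limma adjusted p = 0.0542).

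Genes of the B, C and D classes, which give petals, stamens, carpels and ovules their identity, were mostly at or near 0. Of 4 B-class loci only TM6 (Solyc02g084630) was tested, and it had 21.1, 22.3 and 22 RPKM in FIM against 21.4, 20.1 and 18.5 RPKM in TM. Summed over the 3 libraries, GLO1 (Solyc08g067230) had 3 reads in FIM against 5 in TM, and GLO2 (Solyc06g059970) had 6 in FIM against 5 in TM. Of 4 C- and D-class loci, TAGL1 (Solyc07g055920) and AGL11 (Solyc11g028020) did not reach the level for testing. TAG1 (Solyc02g071730, described as Tomato AGAMOUS 1), the stamen and carpel gene, had 2.06, 2.11 and 1.13 RPKM in FIM against 1.48, 4.57 and 4.43 RPKM in TM, with overlapping libraries. Its difference was -0.73 (SE 0.37, limma adjusted p = 0.301) and was called without TM replicate 1, at -1.17 (limma adjusted p 0.0442), and with library weights, at -1.22 (0.0279). MBP3 (Solyc06g064840), listed with the D class, fell, with 13, 19.9 and 18 RPKM in FIM against 28.5, 37.9 and 27.6 RPKM in TM. This was a difference of -0.87 (SE 0.18, limma adjusted p = 0.0345). That call did not survive when any FIM library was left out (limma adjusted p 0.0847, 0.052 and 0.108), without TM replicate 1 (0.061) or 3 (0.0649), with no filter (0.0709) and on reads with voom (0.0526).

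Among 7 regulators of inflorescence and flower formation, 1 rose, 2 fell and 4 did not pass. Of all genes tested, 2.46% were called higher and 2.31% lower. ANANTHA (AN, Solyc02g081670) had 4.28, 4.45 and 7.11 RPKM in FIM against 0.288, 1.28 and 0.105 RPKM in TM. FIM minus TM came to 2.58 (SE 0.39, limma adjusted p = 0.0131). The FIM libraries stood apart from all TM libraries, of which replicate 2 was the highest, and the call was lost without FIM replicate 3 (limma adjusted p 0.0653). TMF (Solyc09g090180), which represses ANANTHA in the vegetative phase, had 56.4, 63.9 and 51.5 RPKM in FIM against 207, 175 and 229 RPKM in TM. Its log2 difference was -1.82 (SE 0.12, limma adjusted p = 0.00119). BOP3 (Solyc10g079750), a BLADE-ON-PETIOLE cofactor of the kind that binds TMF, had 4.98, 3.9 and 3.49 RPKM in FIM against 16.9, 11.6 and 16.6 RPKM in TM. The groups differed by -1.74 (SE 0.18, limma adjusted p = 0.00377). The TMF and BOP3 calls held under every alternative run.

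FALSIFLORA (FA, Solyc03g118160) was already high in TM, with 162, 165 and 176 RPKM in FIM against 121, 154 and 148 RPKM in TM. Its groups did not overlap, and the difference of 0.26 (SE 0.10) did not pass (limma adjusted p = 0.207). COMPOUND INFLORESCENCE (S, Solyc02g077390), a WOX9-like homeobox gene that sets inflorescence branching, had 66.9, 66 and 52.8 RPKM in FIM against 38.4, 50.5 and 42.5 RPKM in TM, a difference of 0.49 (limma adjusted p = 0.0749). BOP1 (Solyc04g040220) differed by 0.42 (limma adjusted p = 0.15; 0.043 with the replicate block) and BOP2 (Solyc10g079460) by -0.26 (limma adjusted p = 0.287).

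In the florigen list, SSP (Solyc02g083520) fell, and 2 of the 3 tested loci did not pass. SSP had 45.9, 48.7 and 44.4 RPKM in FIM against 117, 73.5 and 112 RPKM in TM. On the log2 scale the difference was -1.08 (SE 0.17, limma adjusted p = 0.0138). Without FIM replicate 1 or 3 SSP was no longer called (limma adjusted p 0.0572 and 0.0714). SFT (Solyc03g063100) had 3.14, 5.14 and 3.01 RPKM in FIM against 3.08, 9.35 and 5.62 RPKM in TM, and SP (Solyc06g074350) 5.86, 12.4 and 3.57 RPKM in FIM against 6.25, 15.2 and 11.7 RPKM in TM. Both overlapped between the groups and were highest in TM replicate 2. The SFT difference of -0.53 ran from -0.90 without TM replicate 1 to -0.17 without TM replicate 2, and the SP difference of -0.65 from -1.10 to -0.27 without FIM replicate 2 or 3. SP5G (Solyc05g053850) and SP9D (Solyc09g009560) had values of 0 in all 6 libraries.

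YABBY genes, which mark the outer side of leaves and floral organs, fell as a group. Of 9 listed loci, 7 were tested, 7 fell and 0 rose, against 2.31% of all genes called lower, and the median difference was -1.89. Their summed level was 63.5 to 81.4 RPKM in FIM libraries against 312 to 435 RPKM in TM libraries. YABBY1a (Solyc01g091010) had 23.4, 20.9 and 26.3 RPKM in FIM against 252, 185 and 202 RPKM in TM. FIM differed from TM by -3.14 (SE 0.13, limma adjusted p = 0.000115). YABBY1b (Solyc08g079100) had 14.3, 13.9 and 16.6 RPKM in FIM against 81.9, 56.8 and 52.9 RPKM in TM. The fitted difference was -2.04 (SE 0.16, limma adjusted p = 0.00228). In both, the lowest TM library was several times the highest FIM library.

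CRABS CLAW a (CRCa, Solyc01g010240), whose Arabidopsis counterpart acts in carpels and nectaries, had 0.202, 0.779 and 0.752 RPKM in FIM against 7.24, 4.79 and 5.69 RPKM in TM. As a log2 difference this was -2.61 (SE 0.26, limma adjusted p = 0.00377). YABBY5b (Solyc12g009580) had 2.65, 2.62 and 2.74 RPKM in FIM against 15.3, 11.2 and 8.27 RPKM in TM. The step measured -1.89 (SE 0.20, limma adjusted p = 0.00413). The differences of YABBY2a (Solyc06g073920), YABBY2b (Solyc11g071810) and YABBY5a (Solyc07g008180) were -1.46, -1.60 and -1.02. YABBY2a lost its call without FIM replicate 3 (limma adjusted p 0.0539), YABBY5a without FIM replicate 1 or 2 or TM replicate 3 (0.0724, 0.0722 and 0.0553), and YABBY2b when any library but TM replicate 2 was left out (0.052 to 0.0889), with no filter (0.0746) and with voom (0.059). CRCb (Solyc05g012050, described as CRABS CLAW b) was not tested, at 0.21 ± 0.062 RPKM in FIM against 0.582 ± 0.219 RPKM in TM (SD, n = 3 each). INO (Solyc05g005240) was at 0 in all 6 libraries.

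Leaf photosynthesis markers had lower means in FIM too. All 9 loci, which encode chlorophyll a-b binding proteins (CAB) and the small Rubisco subunit (RBCS), had a difference below 0, with a median of -1.09, and none had a value of 0 in any of the 6 FIM and TM libraries. Of these 1 passed, CAB3A (Solyc03g005760), with 379, 388 and 358 RPKM in FIM against 729, 544 and 538 RPKM in TM. The difference was -0.67 (SE 0.14, limma adjusted p = 0.0352). Its call was lost when any FIM library was left out (limma adjusted p 0.107, 0.0997 and 0.168), without TM replicate 3 (0.0638), with no filter (0.0723) and under quantile normalization (0.0655). CAB1A (Solyc02g071030) had 26.1, 23.4 and 16.9 RPKM in FIM against 132, 65.4 and 39.7 RPKM in TM, a difference of -1.66 (limma adjusted p = 0.0531; 0.0178 with the replicate block). The summed level of the 9 was 670 to 739 RPKM in FIM libraries against 884 to 1682 RPKM in TM libraries, with TM replicate 1 the highest. CAB copies are near-identical, so the authors' counting may have split reads between them. Among 7 tested genes with photosynthesis terms in their descriptions, 4 were above 0 and 3 below, with a median difference of 0.86, 1 fell and 0 rose. The 3 below 0, CAB1A and CAB1C (Solyc02g070950) among them, are chlorophyll a-b binding genes. The 4 above 0 are described as photosystem core proteins, which plants encode in the plastid genome. One of them, described as Photosystem II protein D1 (Solyc00g500296), had 31.7, 7.3 and 11.5 RPKM in FIM against 5.24, 13.2 and 5.01 RPKM in TM. The differences of the 4 were 0.86 to 0.98, none was called (limma adjusted p 0.259 to 0.353), FIM replicate 1 was the highest library for each, and the groups overlapped for all but Solyc00g500209. The part of leaf tissue in the YABBY and AP2-like falls was not tested.

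**Figure D2:**
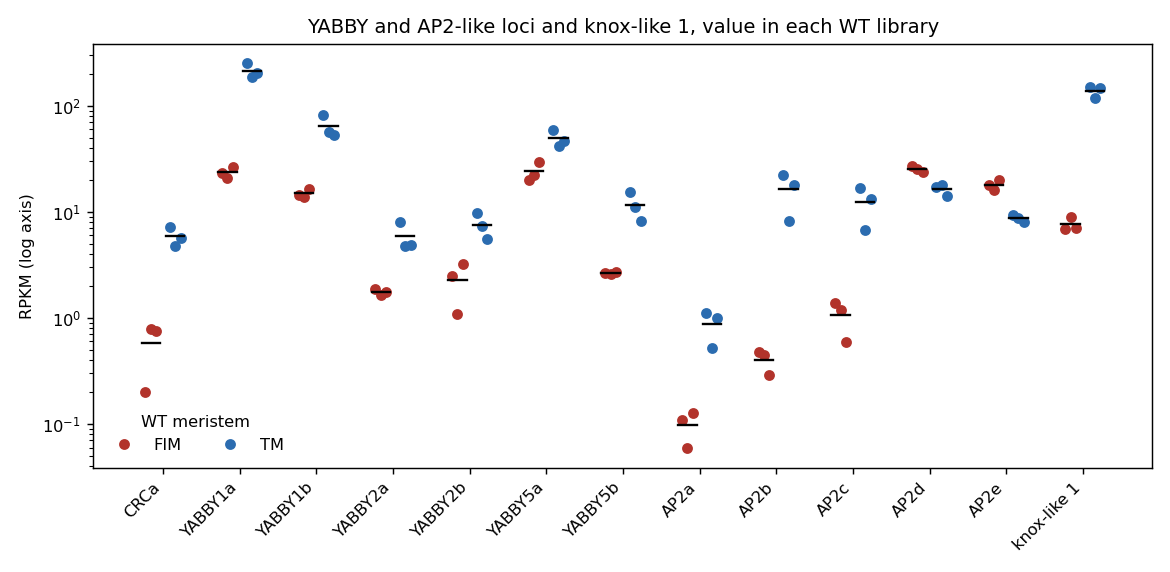
RPKM (log axis) of the YABBY and AP2-like loci and of knox-like 1 in each WT library, FIM in red on the left and TM in blue on the right; bars mark group means. All FIM points lie below all TM points for the 7 YABBY loci, AP2a, AP2b, AP2c and knox-like 1, and above them for AP2d and AP2e.

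The AP2-like genes split. All 5 were called, 3 lower and 2 higher, against 2.31% and 2.46% of all genes tested. Their median difference was -1.18. Several AP2-like genes delay flowering in other plants and are targets of the microRNA miR172. AP2b (Solyc02g064960, described as APETALA2b) had 0.477, 0.447 and 0.287 RPKM in FIM against 22.5, 8.26 and 18.1 RPKM in TM. This was a difference of -4.11 (SE 0.33, limma adjusted p = 0.00228). AP2c (Solyc02g093150, described as APETALA2c) had 1.39, 1.19 and 0.595 RPKM in FIM against 16.9, 6.72 and 13.2 RPKM in TM. FIM minus TM came to -2.98 (SE 0.34, limma adjusted p = 0.00568). TM replicate 2 was the lowest TM library for both, and it still exceeded every FIM library.

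AP2a (Solyc03g044300), known for its part in fruit ripening, was low, with 0.109, 0.059 and 0.127 RPKM in FIM against 1.12, 0.521 and 1.01 RPKM in TM. Its log2 difference was -1.18 (SE 0.22, limma adjusted p = 0.0289). The call was lost when any FIM library was left out (limma adjusted p 0.0931, 0.0971 and 0.107), and the size was -2.26 with an added 0.1 and -3.17 with voom. AP2a passed the filter only through TM, so it was not tested when a TM library was left out. It was tested in 15 of the 19 alternatives. AP2e (Solyc09g007260) had 17.9, 16.2 and 20.1 RPKM in FIM against 9.26, 8.77 and 8.11 RPKM in TM. The groups differed by 1.01 (SE 0.10, limma adjusted p = 0.00377). AP2d (Solyc11g072600) had 27.2, 25.6 and 23.9 RPKM in FIM against 17.3, 17.9 and 14.1 RPKM in TM. On the log2 scale the difference was 0.63 (SE 0.11, limma adjusted p = 0.0195). Its call was lost when any FIM library was left out (limma adjusted p 0.0799, 0.0711 and 0.0698) and in the fit of the 12 TM and FIM libraries of both genotypes (0.0717).

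Genes of stem cell number in the WUSCHEL-CLAVATA pathway gave 0 calls among 7 tested, and their median difference was -0.01. WUS (Solyc02g083950), which keeps the stem cells, had 30.5, 38.8 and 35.2 RPKM in FIM against 12.6, 29 and 19.8 RPKM in TM, a difference of 0.82 (SE 0.26, limma adjusted p = 0.122; 0.0399 with the replicate block). CLV3 (Solyc11g071380), whose peptide limits WUS, had 11, 18.7 and 13.9 RPKM in FIM against 17.5, 25.8 and 23.5 RPKM in TM, a difference of -0.61 (SE 0.20, limma adjusted p = 0.139; 0.0184 with the block). WUS groups did not overlap and CLV3 groups did. The receptor gene CLV1 (Solyc04g081590) was at 23.8 ± 3.7 RPKM in FIM against 25.3 ± 6.39 RPKM in TM (SD, n = 3 each), and the arabinosyltransferase gene FIN (Solyc11g064850) at 13.5 ± 0.446 RPKM in FIM against 13.6 ± 0.994 RPKM in TM (SD, n = 3 each).

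Among 4 KNOX genes of meristem maintenance, 2 rose modestly and 0 fell, against 2.46% of all genes called higher. TKN2 (Solyc02g081120), the tomato counterpart of SHOOT MERISTEMLESS, had 200.4, 229.7 and 248 RPKM in FIM against 136, 158 and 162 RPKM in TM. FIM differed from TM by 0.57 (SE 0.11, limma adjusted p = 0.0292). TKN1 (Solyc04g077210) had 55.5, 54.7 and 50.6 RPKM in FIM against 29.5, 37.5 and 32.6 RPKM in TM. The fitted difference was 0.69 (SE 0.10, limma adjusted p = 0.0114). TKN1 lost its call without FIM replicate 1 or 3 (limma adjusted p 0.0506 and 0.055). TKN2 lost it without FIM replicate 2 or 3 (0.0988 and 0.137), without TM replicate 1 or 3 (0.0669 and 0.062), with no filter (0.0526) and in the fit of the 12 TM and FIM libraries (0.0553). A further gene, described as knox-like 1 (Solyc06g072480), fell far more, with 6.87, 8.96 and 7.12 RPKM in FIM against 151, 119 and 146 RPKM in TM. As a log2 difference this was -4.10 (SE 0.13, limma adjusted p = 2.4e-05). Its groups stood more than 10-fold apart in every pair of libraries, and its adjusted p was the lowest of the genes named here.

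Of 5 genes of organ boundaries and axillary meristems, 2 fell and 3 did not pass, against 2.31% of all genes called lower. LATERAL SUPPRESSOR (LS, Solyc07g066250), the GRAS-family gene needed to start side shoots, had 4.48, 4.59 and 3.68 RPKM in FIM against 8.09, 7.62 and 10.4 RPKM in TM. The step measured -0.95 (SE 0.14, limma adjusted p = 0.0132). LYRATE (LYR, Solyc05g009380), which shapes leaf and flower organs, had 4.51, 4.58 and 5.08 RPKM in FIM against 14.4, 9.48 and 10.7 RPKM in TM. The difference was -1.18 (SE 0.15, limma adjusted p = 0.00901). LS lost its call without FIM replicate 3 (limma adjusted p 0.0665) and LYR in the fit of the 12 TM and FIM libraries (0.109). The MYB gene C (Solyc06g074910, known from potato leaf) had 3.26, 5.22 and 4.19 RPKM in FIM against 0.723, 2.19 and 1.85 RPKM in TM, a difference of 1.24 (limma adjusted p = 0.0614; 0.0189 with the replicate block), and its relative BLIND (BL, Solyc11g069030), needed for side shoots, 36.8, 36.3 and 34.5 RPKM in FIM against 18.1, 32.1 and 31.7 RPKM in TM. GOBLET (GOB, Solyc07g062840), the NAC gene of organ boundaries, was at 87.4 ± 3.51 RPKM in FIM against 96.6 ± 15.4 RPKM in TM (SD, n = 3 each).

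SBP-box genes, which carry the passage between growth phases, were all on the lower side: 9 of 9 tested had a difference below 0, 2 of these passed, and the median was -0.35. Over all genes tested, 9297 of 17649 were below 0, and 2.31% were called lower. SBP3 (Solyc10g009080) had 4.47, 4.72 and 4.59 RPKM in FIM against 10.2, 9.11 and 8.9 RPKM in TM. This was a difference of -0.96 (SE 0.10, limma adjusted p = 0.00377). SBP8b (Solyc01g090730) had 0.99, 1.29 and 1.25 RPKM in FIM against 4.3, 2.83 and 2.91 RPKM in TM. FIM minus TM came to -1.18 (SE 0.18, limma adjusted p = 0.0136). SBP3 lost its call in the fit of the 12 TM and FIM libraries (limma adjusted p 0.147) and SBP8b without FIM replicate 1 or 3 (0.0576 and 0.0642). CNR (Solyc02g077920), known for fruit ripening, and SBP10 (Solyc05g015510) differed by -0.65 and -0.38 and did not pass (limma adjusted p 0.0589 and 0.0688), but did with the replicate block (0.0284 and 0.043).

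Among the hormone genes given here, only gibberellin genes were called. Of 5 tested gibberellin genes in the list, 1 rose and 0 fell, against 2.46% of all genes called higher. The median difference was 0.15. GA20ox2 (Solyc06g035530), an enzyme of gibberellin synthesis, had 12.6, 11.2 and 11.4 RPKM in FIM against 2.88, 5.69 and 4.2 RPKM in TM. Its log2 difference was 1.41 (SE 0.20, limma adjusted p = 0.0115). Without FIM replicate 1 or 3 it was no longer called (limma adjusted p 0.0508 and 0.0599). The DELLA gene PROCERA (Solyc11g011260) was at 56 ± 7 RPKM in FIM against 50.2 ± 1.92 RPKM in TM (SD, n = 3 each), and GA2ox5 (Solyc07g061730), of the gibberellin-inactivating kind, at 0.869 ± 0.197 RPKM in FIM against 2.58 ± 1.19 RPKM in TM (SD, n = 3 each), neither called. A described Gibberellin 2-oxidase 1 (Solyc02g070430), of that kind too, rose, with 7.3, 6.42 and 5.15 RPKM in FIM against 0.667, 2.63 and 0.787 RPKM in TM. The groups differed by 2.01 (SE 0.35, limma adjusted p = 0.0226). It lost its call when any library but TM replicate 2 was left out (limma adjusted p 0.0502 to 0.0891) and with no filter (0.0544).

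MONOPTEROS (MP, Solyc04g081240), an auxin response factor, was at 112 ± 10.1 RPKM in FIM against 87.6 ± 3.49 RPKM in TM (SD, n = 3 each), a difference of 0.35 (limma adjusted p = 0.0614; 0.0401 with the replicate block), and the repressor gene IAA9 (Solyc04g076850) at 373 ± 8.24 RPKM in FIM against 383 ± 14.8 RPKM in TM (SD, n = 3 each). None of the 5 genes described with cytokinin terms passed. The nearest, cytokinin oxidase4 (Solyc04g080820), an enzyme that degrades the hormone, had 4.04, 4.62 and 5.03 RPKM in FIM against 0.206, 2.19 and 1.21 RPKM in TM, a difference of 1.77 (limma adjusted p = 0.0589; 0.0391 with the replicate block).

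The TCP and CONSTANS-like lists had 1 tested member each and 0 calls. In the TCP list LANCEOLATE (LA, Solyc07g062680), the leaf-growth gene that miR319 targets, was at 10.5 ± 0.914 RPKM in FIM against 12.8 ± 0.598 RPKM in TM (SD, n = 3 each), and both BRC1 loci were under the level for testing. In the CONSTANS-like list CO1 (Solyc02g089540) was at 0.422 ± 0.0654 RPKM in FIM against 1.56 ± 0.828 RPKM in TM (SD, n = 3 each), with a limma adjusted p of 0.0678, and the other loci were at or near 0. The 5 control genes, TIP41, CAC, EXPRESSED, ACT and GAPDH, had differences from -0.06 to 0.20 and 0 calls.

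**Figure D3:**
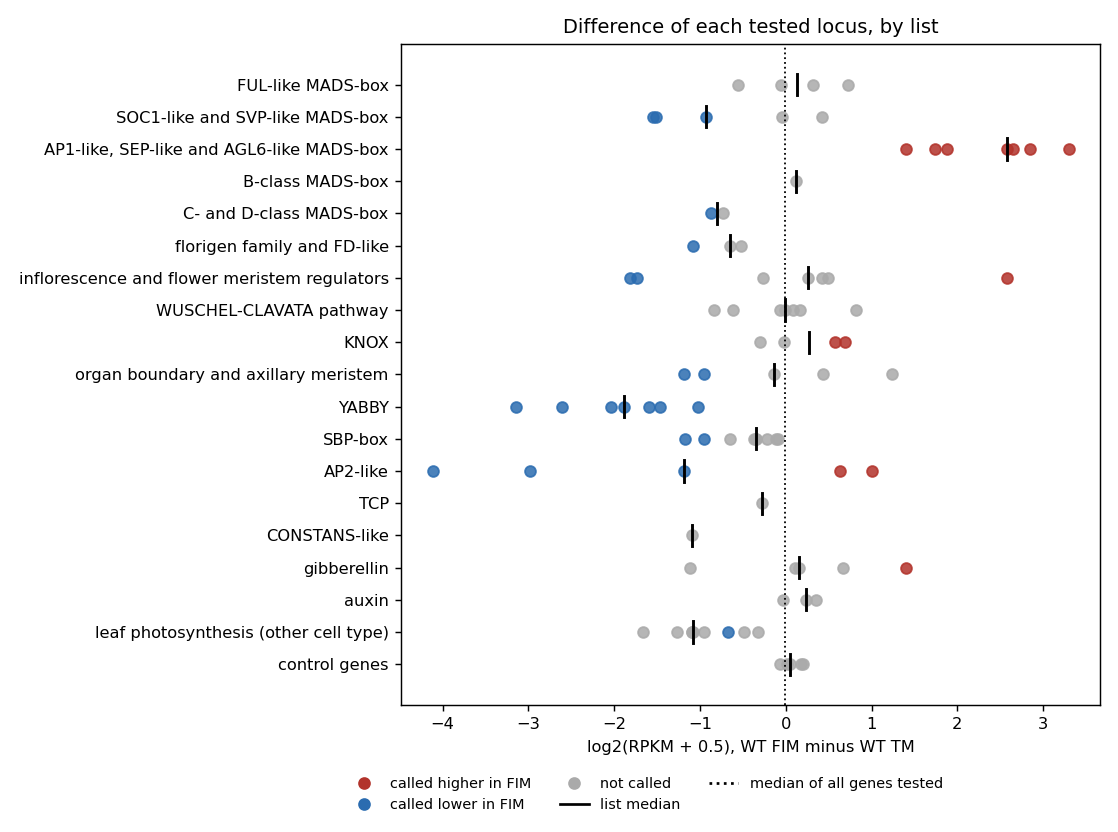
Difference of each tested locus on the log2(RPKM + 0.5) scale, WT FIM minus WT TM, by list; red and blue points were called higher and lower in FIM, grey points were not called, bars are list medians and the dotted line is the median of all 17649 genes tested (-0.01). The AP1-like, SEP-like and AGL6-like loci lie wholly to the right (median 2.58) and the YABBY loci wholly to the left (median -1.89).

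Descriptions were deposited for 435 genes, those on the authors' lists of slful versus WT differences at any stage, and 282 were tested here. Of these, 33 rose and 19 fell, against 2.46% and 2.31% of all genes tested. The WT TM and FIM libraries also served in the authors' lists, so these genes were not chosen apart from these data. The description lists for auxin and heat shock had 0 tested members, and those for defence, flavonoids, histones and the cell cycle, transporters, the cell wall and terpenoids had 0 calls. In the list of transcription factor terms, 2 of 18 rose and 1 fell. AGL6 and TM3 are 2 of these, and the third, a FCS-Like Zinc finger 3 gene (Solyc01g088660), had 52.2, 49.3 and 38.4 RPKM in FIM against 20.1, 27 and 23.8 RPKM in TM, with a call lost without FIM replicate 1 or 2. A gene described as Myb family transcription factor APL (Solyc05g007890) differed by 0.94 and did not pass (limma adjusted p = 0.0682; 0.0431 with the replicate block). In the MADS-box list of 9, 2 rose and 2 fell, all named above.

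The largest rise among described genes was that of a gene described as Unknown protein (Solyc03g070430), with 17.5, 11.2 and 14.6 RPKM in FIM against 0.299, 0.757 and 0.537 RPKM in TM. On the log2 scale the difference was 3.86 (SE 0.21, limma adjusted p = 0.0005). An Inositol oxygenase gene (Solyc12g008650), whose Arabidopsis counterparts open the inositol ring toward cell wall sugars, had 28.8, 26.6 and 19.6 RPKM in FIM against 4.97, 7.26 and 5.25 RPKM in TM. FIM differed from TM by 2.01 (SE 0.18, limma adjusted p = 0.00275). A Tetraspanin family gene (Solyc08g076850) had 17.6, 18.3 and 18.4 RPKM in FIM against 2.44, 6.01 and 3.73 RPKM in TM. The fitted difference was 2.10 (SE 0.25, limma adjusted p = 0.00687). These 3 calls held under every alternative run, as did that of a Stress responsive A/B barrel gene (Solyc11g066950), with a difference of 1.79. The Patatin gene (Solyc08g006860, 2.24), the RING/U-box gene (Solyc06g007230, 1.94) and Leucine aminopeptidase A1 (Solyc12g010020, 1.85) also rose. Each lost its call when any FIM library was left out (limma adjusted p 0.0641 to 0.117) and with no filter (0.07, 0.0585 and 0.0727). The Patatin gene also lost it without TM replicate 1 or 3 (limma adjusted p 0.0811 and 0.0653), and the RING/U-box gene without TM replicate 3 (0.0638).

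The largest fall among described genes was that of a Non-specific lipid-transfer protein gene (Solyc10g075107), a family linked with lipid transport and the cuticle. It had 2.97, 2.1 and 0 RPKM in FIM against 44.8, 66.3 and 44.8 RPKM in TM. As a log2 difference this was -4.96 (SE 0.64, limma adjusted p = 0.00918). A Cytochrome P450 gene (Solyc01g108210) had 0.043, 0.383 and 0.132 RPKM in FIM against 2.98, 2.59 and 3.19 RPKM in TM. The step measured -2.34 (SE 0.21, limma adjusted p = 0.00281). An E3 ubiquitin-protein ligase RMA1H1 gene (Solyc10g008410) differed by -2.57 and an Avr9/Cf-9 rapidly elicited gene (Solyc03g120930) by -2.14. These 4 held under every alternative in which they were tested. The Cytochrome P450 gene passed the filter only through TM, so it was not tested when a TM library was left out. It was tested in 16 of the 19 alternatives. An Unknown protein gene (Solyc06g059870; -2.91), a chlorophyll a-b binding gene (Solyc02g071010; -2.25) and a Trypsin/subtilisin inhibitor gene (Solyc01g108390; -2.01) fell too, but each was highest in TM replicate 1, and voom gave them limma adjusted p 0.0584, 0.16 and 0.141. The chlorophyll a-b binding and inhibitor genes also lost their calls when any FIM library was left out (limma adjusted p 0.0799 to 0.117) and with no filter (0.0723 and 0.0646).

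Among genes with neither a description nor a listed symbol, Solyc09g014525 had 193, 189.7 and 181 RPKM in FIM against 19.4, 44.4 and 17.4 RPKM in TM (difference 2.90), and Solyc01g096120 had 0.325, 0.284 and 0.153 RPKM in FIM against 8.85, 6.68 and 5.92 RPKM in TM (difference -3.33). Solyc05g007210 rose by 2.54 and Solyc06g065970 fell, with a difference of -3.09. Both lost their calls without FIM replicate 2 or 3, and the second also without FIM replicate 1, with no filter and with voom. A pair of called genes, chosen after their values were seen, had 0 reads in 1 group. Each passed the filter only through its other group, so neither was tested when a library of that group was left out. Solyc03g116650 was tested in 16 and Solyc06g009645 in 15 of the 19 alternatives. Solyc03g116650 had 0 reads in FIM against 143 in TM and was at least 8.46-fold lower, and Solyc06g009645 had 40 reads in FIM against 0 in TM and was at least 6.36-fold higher, both against 3 reads per library. Solyc06g009645 lost its call in the fit of the 12 TM and FIM libraries (limma adjusted p 0.0764).

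**Figure D4:**
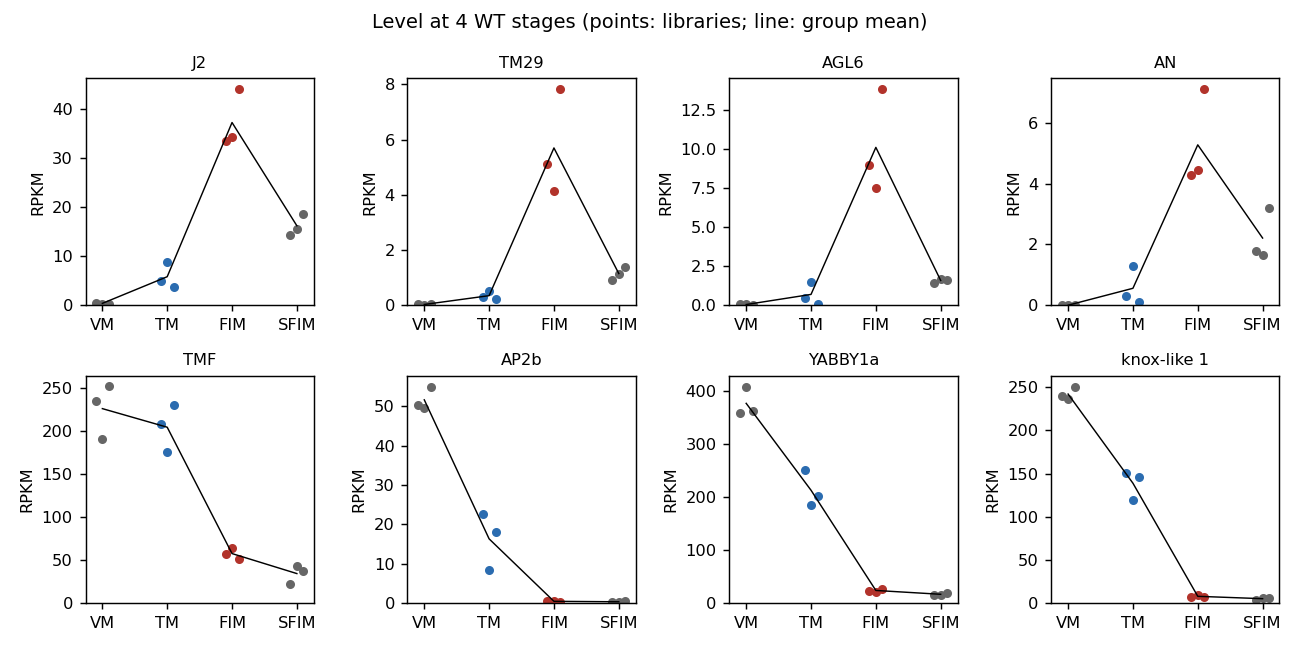
RPKM (linear axes) of 8 genes at 4 WT stages; points are libraries, lines join group means, TM is blue and FIM red. J2, TM29, AGL6 and AN are near 0 in VM, highest in FIM and lower again in SFIM, while TMF, AP2b, YABBY1a and knox-like 1 are high in VM and TM and low in FIM and SFIM.

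The other WT stages, set beside these genes with no test, gave much the same division. Of the 434 genes higher in FIM, 362 had a higher mean in SFIM than in VM (83.4%, against 40.8% of all genes tested), and of the 408 lower in FIM, 386 had a lower one (94.6%, against 59.0%). Values of VM and SFIM carry fewer decimals in the deposited table than those of TM and FIM, so between these pairs of stages the stage and whatever else differed between the exports cannot be told apart, whereas SFIM and VM share a format. AGL6 averaged 0.0431 ± 0.0373 in VM, 0.692 ± 0.733 in TM, 10.1 ± 3.31 in FIM and 1.59 ± 0.121 in SFIM (mean RPKM ± SD, n = 3 each). ANANTHA averaged 0 ± 0 in VM, 0.557 ± 0.631 in TM, 5.28 ± 1.59 in FIM and 2.21 ± 0.862 in SFIM. MACROCALYX was highest in SFIM, with means of 2.3 ± 1.3 in VM, 67.4 ± 25.7 in TM, 171 ± 9.68 in FIM and 239 ± 5.2 in SFIM. AP2b averaged 51.7 ± 2.88 in VM, 16.3 ± 7.3 in TM, 0.403 ± 0.102 in FIM and 0.292 ± 0.169 in SFIM. The lipid-transfer gene Solyc10g075107 was high in TM alone among these groups, with means of 0.436 ± 0.158 in VM, 52 ± 12.4 in TM, 1.69 ± 1.53 in FIM and 0.115 ± 0.117 in SFIM.

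The same step in slful, in libraries that were not used to call the WT genes, mostly took the same direction. Of the 434 genes that rose in WT, 430 were higher in slful FIM than in slful TM (99.1%, against 41.6% of all genes tested), and of the 408 that fell, 394 were lower (96.6%, against 58.4%). A fit of the 6 slful libraries called 490 of 17721 genes (2.77%), and 252 genes were called in both genotypes, all in the same direction. These are 29.9% of the WT calls and 51.4% of the slful calls. AGL6 had 4.02, 8.17 and 7.41 RPKM in slful FIM against 0, 0.0518 and 0.281 RPKM in slful TM. YABBY1a had 12.3, 16.1 and 23 RPKM in slful FIM against 198, 136 and 200.4 RPKM in slful TM. Their slful steps were 3.50 and -3.37, beside 3.30 and -3.14 in WT.

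A test of the difference between the genotypes' steps called 0 of 18196 genes in the 12 TM and FIM libraries (0.0%), with a lowest limma adjusted p of 0.706 and 744 genes (4.09%) at an unadjusted p under 0.05. Fits of all 24 libraries and with library weights called 5 and 203, the count being 0 under every other alternative run. The weights were 90.5 for slful FIM replicate 2 against 0.0749 and 0.277 for slful FIM replicates 1 and 3. A gene described as Unknown protein (Solyc06g059870) had 1.89, 1.92 and 1.79 RPKM in WT FIM against 29.8, 16.2 and 10.5 RPKM in WT TM, and 10.9, 5.27 and 4.63 RPKM in slful FIM against 4.23, 9.25 and 7.19 RPKM in slful TM. Its slful step minus its WT step was 2.88 (limma adjusted p = 0.706). The locus Solyc12g040860, a glucan endo-1,3-beta-glucosidase by its description, stayed under 0.1 RPKM in all 6 WT libraries and had 0.854, 0.79 and 0.725 RPKM in slful FIM against 3.98, 3.12 and 6.86 RPKM in slful TM, a difference between steps of -1.86 (limma adjusted p = 0.706). For a hypothetical protein gene (Solyc04g077690), a Hexosyltransferase gene (Solyc02g087350) and another Unknown protein gene (Solyc01g109090) it was 1.02, -2.60 and 2.16, none of them called.

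**Figure D5:**
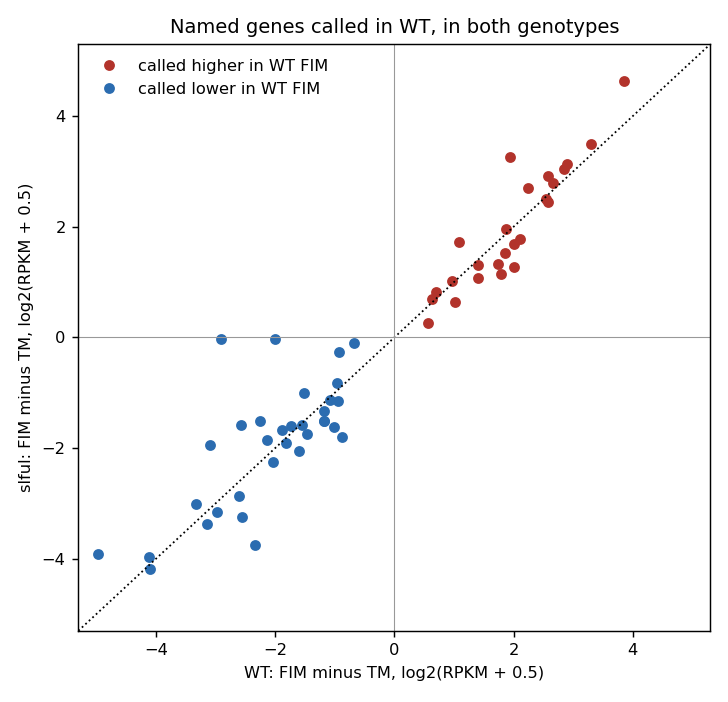
FIM minus TM difference on the log2(RPKM + 0.5) scale in WT (horizontal) and slful (vertical) for the 58 named genes called in WT, red where higher and blue where lower in WT FIM; the dotted line marks equal differences. All 58 have the same sign in both genotypes, and 2 blue points at the zero line of slful are Solyc06g059870 and Solyc01g108390.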

How the data were processed

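Per the labels, RNA of 30 to 60 pooled meristems per sample was treated with DNase and made into TruSeq RNA libraries. The authors deposited RPKM values (reads per kilobase of gene and per M mapped reads, M standing for mega; the legend sheet names this unit, while the name of the workbook mentions raw counts). No source used here gives the aligner, genome build, strand setting or counting, so overlapping and antisense genes may share reads. The values were whole multiples of 1 read for all 25568 genes above 0 (largest distance 0.0033 reads), and the reads so recovered served for depth, gene lengths, limits for 0 reads and the voom alternative. Pooled, whole-library RPKM gives levels relative to the rest of a library.

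The deposited unit is RPKM, so of both planned tests the one for RPKM was used: limma 3.58.1 in R 4.3.3 with a trend on the mean, on log2(RPKM + 0.5), for the 6 libraries of WT FIM and WT TM, 2-sided, with Benjamini-Hochberg adjusted p-values over 17649 genes and no threshold on the fold. Python 3.11.15, numpy 2.4.6 and pandas 2.3.3 made the tables. The difference between the genotypes' steps was fitted on 12 libraries. The scripts were tested on simulated data. The p-values measure the spread between 3 libraries per group. Samples were grouped by the labels.

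The replicate numbers come from the sample titles. Deviations from the group means correlated between same-numbered FIM and TM libraries (0.2, 0.35 and 0.21 over genes for numbers 1, 2 and 3), more than between others (-0.32 to 0.11). The main test left the numbers out, and the replicate block of an alternative fit used them as pairs. The labels name no shared batch. With 3 libraries per group, these correlations cannot settle whether the numbers pair the libraries.

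The comparison and the 19 ID lists and 14 description lists were chosen with earlier results of these data known. Named genes are the list members tested, with up to 4 uncalled per list, up to 4 of a description list, the 10 largest called rises and falls with a description and 2 of each with neither description nor listed symbol (groups apart, mean of at least 2 RPKM), and the 5 described genes with the smallest p for the difference between steps. For 95 of the 110 listed loci the deposited tables give no description to set beside the symbol, and no ID matched the reference table held (SLM_r2.1). Sequences and coordinates were not used here. The result of 1 further listed gene is not reported here. Alternatives were other added constants, filters, scalings, sample sets, library weights, a length trend, voom, the replicate block and leaving out each library.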

Additional observations from a re-analysis of the deposited data

How the results depend on the processing

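The count of 842 calls became 1801 when all 24 libraries were fitted together, 2132 with the 12 WT libraries, 3031 with 1 weight per library and 1307 after a length trend was removed; the cause was not tested. It was 616 to 850 under the other settings, 814 and 817 with 0.1 and 1 added and 808 with voom on reads. Leaving out 1 library gave 131 to 1291 calls, and 113 to 448 over 2-fold. Only leaving out TM replicate 2 raised both counts. With the replicate block, 1192 genes were called (619 higher, 573 lower). The block ended the call of none of the genes named and added calls for 12 genes, each given beside its value. The difference between the genotypes' steps gave 5 calls with all 24 libraries and 203 with library weights, and the cause was not tested. Those weights rested the slful FIM group almost wholly on replicate 2 (90.5, against 0.0749 and 0.277 for replicates 1 and 3). The count was 0 under the replicate block and when any 1 library was left out. Of 58 named genes called, 28 kept the call under every alternative in which they were tested, 14 lost it only without a library and 16 under another setting, and 0 reversed. TM5, AP2a, AP2b, Solyc01g108210, Solyc01g096120, Solyc03g116650 and Solyc06g009645 passed the filter only through the group where they were high. They were not tested when a library of that group was left out. Of 52 genes within the naming rule and not called, 28 were called under some alternative. Differences near 0 changed sign for uncalled genes: IAA9 (0.0197 with quantile normalization), MBP18 (0.0061 with voom, -0.184 to 0.0758 without 1 library), FUL2 (0.12 with library weights, -0.189 to 0.109 without 1 library), TKN3 (0.0026 without the length trend, -0.14 to 0.0587 without 1 library), CAC (-0.0198 to 0.0909 without 1 library) and GA2ox4 (-0.0192 to 0.296 without 1 library). At these depths 3 reads in a gene of 1 kb equal 0.077 to 0.095 RPKM in FIM and 0.0332 to 0.0936 RPKM in TM, so genes such as the B-class loci near 0 could not be compared.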

Other observations

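Loci that follow each other directly in the deposited table differed in what they did at this step. AGL6 (difference 3.30) stands next to the gene TM3 (-0.93), TM29 (2.85) next to MBP20 (0.32), EJ2 (2.58) next to FUL2 (-0.05), and J2 (2.65) next to SBP6c (-0.35). These pairs were picked after their values were seen, and no test was made. In each pair the AGL6-like or SEP-like member rose, and its neighbour fell or did not pass.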
